A study of Homo sapiens with 14 samples.

Results

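Dexamethasone was given to MM1S cells for 6 h at 2 doses, 2 µM and 25 nM, and the arrays of the high dose were set against those of the low dose. There were 2 arrays at each dose, 4 of the 14 arrays in the series, and 9301 genes were compared out of 19775 with a named probe set. MM1S is 1 established human multiple myeloma line, so every group is the same line, and no treatment beyond those named is given in the labels. The high dose group received 2 µM dexamethasone alone. The low dose group received 25 nM dexamethasone and no agonist. Untreated cells gave the background level, and no vehicle is named for them. A further 8 arrays hold cells given salmeterol (1 nM) or CGS-21680 (12.5 nM), each without and with 25 nM dexamethasone, also for 6 h. Replicates are labelled biological, with no word on separate cultures, so p-values measure the spread between these arrays, which may in part be technical. The question of the comparison is whether the higher dose adds to the response obtained with the lower one.

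Dexamethasone is a synthetic glucocorticoid that enters cells and binds the glucocorticoid receptor, the product of NR3C1. The bound receptor leaves its chaperones, moves to the nucleus and acts on genes from DNA elements and through other transcription factors. Once nearly all receptors are occupied, more hormone can add little through the receptor, and genes differ in how much hormone they need. In myeloma, glucocorticoids are used because they kill plasma cells.

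Levels are log2 of the deposited intensity, with a floor of 2.286, and levels under 4 are weak. Errors beside levels are standard deviations of 2 arrays, and errors beside differences are standard errors (SE) of the limma model fitted to all 14 arrays. The 2 high dose arrays correlated at 0.9868 across genes and the 2 low dose arrays at 0.9919, while pairs of 1 high and 1 low dose array correlated at 0.9845 to 0.9938. High dose replicate 2 had the smallest gap between the GAPDH control probe sets for its 3′ and 5′ ends, 0.735 in log2 against 0.887 to 1.31 on the other 13 arrays. Its gap for the ACTB control probe sets, 1.65, lay within the 1.25 to 2.23 of the other 13. Levels on each high dose array, or the step on each, are printed for most genes described. Most plasma cell markers were present: across the untreated and dexamethasone-alone arrays TNFRSF17, SDC1, PRDM1, XBP1 and IRF4 had group means of 10.65 to 13.08, and CD38 of 6.16 to 6.70. Of 31 plasma cell and myeloma genes on the array, 27 reached 4 on at least 2 of these arrays. The other 4, CD27, FGFR3, FCRL5 and DKK1, lay under 4 on all of them. All 8 T cell markers and all 7 monocyte markers on the array lay under 4 on these 6 arrays, as did 5 of 6 B cell markers, all but CD79B. Of 9 stromal markers VIM, SPARC and COL1A1 were above 4, and of 4 erythroid markers HBB and HBD were. The summed linear level of the stromal list was 3164 to 3182 at the low dose, 3478 to 3635 at the high dose and 1892 to 2065 without dexamethasone, and VIM had the highest level among these. The part of other cell types in the results was not tested.

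No gene passed the test between the doses. Of 9301 genes, 0 had an adjusted p under 0.05 in limma with Benjamini-Hochberg adjustment (0%), and the lowest adjusted p was 1. At an unadjusted p under 0.05 there were 206 genes higher at the high dose (2.21%) and 122 lower (1.31%), 328 together (3.53%), where a test with no differences would give 465. Against untreated cells the same model called 798 genes at the high dose (8.58%; 406 higher, 4.37%, and 392 lower, 4.21%). At the low dose it called 433 (4.66%; 230 higher, 2.47%, and 203 lower, 2.18%). Both counts use the same untreated arrays, and a gene called at 1 dose and not at the other is not thereby shown to differ between doses. They also depended on single arrays: the high dose count was 342 without untreated replicate 1, 396 without untreated replicate 2 and 388 without high dose replicate 2, and the low dose count 187, 221, 191 and 204 without untreated replicate 1 or 2 or low dose replicate 1 or 2. The median absolute difference between doses was 0.11 in log2 with a median SE of 0.171. For 8484 genes (91.2%) the 95% interval of the difference lay within a 2-fold change in either direction. These intervals are for single genes and are not adjusted for their number. There were 17 genes that differed by 2-fold or more upward and 9 downward.

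The well known glucocorticoid targets TSC22D3, DDIT4 and FKBP5 had most of their distance from untreated cells at 25 nM, on the probe set of highest level. Other known targets differed. ZBTB16 stood 0.97 above untreated cells at 25 nM and 1.91 at 2 µM, at weak levels. DUSP1 was called at neither dose against untreated cells, and SGK1 was lower at both. TSC22D3, the glucocorticoid-induced leucine zipper gene, had log2 levels of 6.02 and 5.92 in untreated cells, 11.97 and 12.04 at the low dose and 12.50 and 12.38 at the high dose. The untreated and low dose arrays lay 6.03 apart on average, and the doses 0.44 ± 0.24 (SE; 95% interval -0.12 to 0.99). DDIT4, which restrains mTOR signalling, went from 4.92 and 5.46 without dexamethasone to 13.37 and 13.53 at 25 nM, and had 13.75 and 13.99 at 2 µM. FKBP5, a cochaperone that dampens the glucocorticoid receptor, had 9.27 and 9.22, then 13.27 and 13.19, then 13.38 and 13.40. In all of these the high dose arrays lay above the low dose arrays, by a small part of the distance from untreated cells. The step between doses was 0.41 ± 0.39 for DDIT4 (interval -0.46 to 1.29) and 0.17 ± 0.08 for FKBP5 (interval -0.01 to 0.35). Probe sets of lower level had larger steps, 0.82 for the second of TSC22D3 and 0.45 and 0.80 for the others of FKBP5. The chemokine receptor gene CXCR4 had levels of 10.10 and 10.28 without hormone, 13.01 and 13.16 at the low dose, and 13.53 and 13.81 at the high dose. Its step of 0.58 ± 0.19 (interval 0.16 to 1.01) had an interval above 0. KLF9, a Krüppel-like transcription factor, and NFKBIA, the inhibitor of NF-kappaB, overlapped between doses (steps of 0.40 ± 0.29 and 0.17 ± 0.12). Each step came from 1 array: it was 0.03 on high dose replicate 1 and 0.77 on replicate 2 for KLF9, and 0.34 and 0.01 for NFKBIA.

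**Figure D1:**
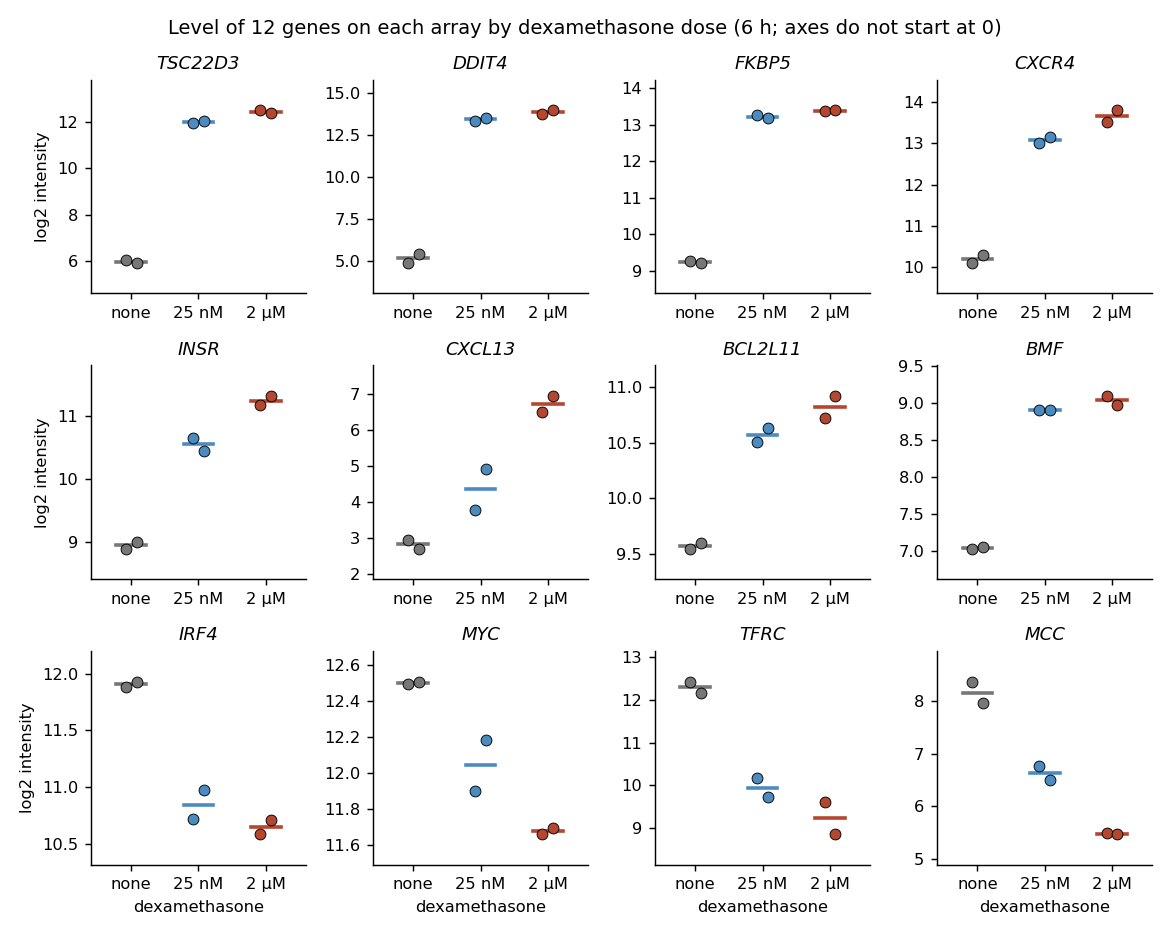
Log2 intensity of 12 genes on each array (points) and the mean of each group of 2 (bars) for untreated cells, 25 nM and 2 µM dexamethasone after 6 h; the vertical axes differ between genes and do not start at 0. For TSC22D3, DDIT4 and FKBP5 most of the distance from untreated cells lay below 25 nM, while CXCL13 and INSR had a further visible step to 2 µM.

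Of 23 glucocorticoid-induced genes tested, 13 rose and 1 fell at the low dose against untreated cells, and 14 rose and 2 fell at the high dose. Of all genes 2.47% rose and 2.18% fell at the low dose, and 4.37% and 4.21% at the high dose. Between the doses 0 passed limma's test, 8 lay higher on both high dose arrays and 2 lower. Over all genes 12.9% lay higher on both high dose arrays and 11.2% lower. The median step over the list was 0.17 against 0.00 over all genes. It was 0.22 on high dose replicate 1 alone and -0.01 on replicate 2 alone. The list's medians against untreated cells were 0.97 at the low dose and 0.95 at the high dose. Here the median of the steps and the difference of the medians have opposite signs. At an unadjusted p under 0.05 stood ZBTB16, CXCR4, GLUL, TNFAIP3 and, in the other direction, GADD45B. GLUL makes glutamine, and TNFAIP3 encodes the NF-kappaB inhibitor A20. They and GADD45B, a stress-response gene, are named after their values were seen. The steps were 0.50 for GLUL, 0.30 for TNFAIP3 and -0.47 for GADD45B, the last being -0.26 on high dose replicate 1 and -0.69 on replicate 2. ZBTB16, a zinc finger transcription factor gene, had 3.82 and 3.03 at the low dose and 4.16 and 4.57 at the high dose, against 2.44 and 2.47 without hormone. Its low dose arrays were both under 4, so the step of 0.94 ± 0.23 rests on weak levels and is bounded at no less than 1.29-fold.

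To describe the dose step over responsive genes without choosing them by their change on the same arrays, genes were taken that 25 nM dexamethasone changed in 1 direction both beside salmeterol and beside CGS-21680. The differences in those contrasts come from the 8 agonist arrays alone, but the model's spread and the filter on low values use all 14, so the choice was not fully apart from the dose arrays. The genes chosen numbered 960 without high dose replicate 1, 959 without replicate 2, and 802 and 803 without low dose replicate 1 or 2. Dexamethasone changed 1512 genes beside salmeterol (16.3%) and 1279 beside CGS-21680 (13.8%). There were 455 genes that rose in both (4.89%) and 447 that fell in both (4.81%). Of the 455, 169 lay higher on both high dose arrays than on both low dose arrays (37.1%, against 12.9% of all genes), and 33 lay lower (7.25%, against 11.2%). Of the 447, 126 lay lower still on both high dose arrays (28.2%, against 11.2% of all genes), and 33 lay higher (7.38%, against 12.9%). The arrays of the doses overlapped for 541 of the 902 genes (60%, against 75.8% of all genes). Quantile normalization gave 31.5% against 9.93% of all genes for those that rose and 33.9% against 17.9% for those that fell. Under it more genes lay lower than higher on both high dose arrays, where the values as deposited had more higher than lower.

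The size of this further step was small. Its median was 0.11 in log2 for the genes that rose and 0.07 downward for those that fell, against 0.00 over all genes. For the genes that fell it rested more on some arrays: it was 0.04 with high dose replicate 1 alone and 0.10 with replicate 2 alone, and 0.04 and 0.10 with only low dose replicate 1 or 2. In the direction of dexamethasone it was 0.09 over all 902, with quartiles of -0.02 and 0.21. With high dose replicate 1 alone it was 0.07, and with replicate 2 alone 0.09. With only low dose replicate 1 it was 0.09, and with only replicate 2 also 0.09. Against the same untreated arrays the genes that rose stood at a median of 0.55 at the low dose and 0.65 at the high dose. The genes that fell stood at 0.48 and 0.56 below untreated cells. The low dose median was thus 84.8% and 85.5% of the high dose median on the log2 scale. Genes that 25 nM did not change beside the agonists could not enter, so these shares are set in part by the choice. Of the 902, limma called 311 in the direction of dexamethasone at 25 nM and 461 at 2 µM, against untreated cells. Over all genes it called 4.66% at 25 nM and 8.58% at 2 µM in either direction, so the call rate was higher at 2 µM there too. The 95% interval kept the further step under 2-fold for 838 of the 902 genes (92.9%) and under 1.5-fold for 646 (71.6%). Over all genes it kept a step upward under 2-fold for 94.8% and under 1.5-fold for 77%. For a step downward these shares were 95.8% and 76.6%. The 902 genes were thus not bounded more tightly than all genes. The interval lay wholly above 1.5-fold for CXCL13, whose level on low dose replicate 1 was weak. The same held on fitted values for DKK1 and AKAP14, whose low dose levels are all under 4, so that no such bound is drawn for them.

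Among the genes that rose, the step was larger for those with a larger response. When the 455 genes that rose were split into 4 bins of like size by their mean change beside the agonists, the median steps from the smallest to the largest change were 0.04, 0.06, 0.11 and 0.26. The bin of largest change had a median change of 2.15 beside the agonists. In it 59 of 114 genes lay higher on both high dose arrays (51.8%, against 12.9% of all genes) and 4 lower (3.51%, against 11.2%). Its median step ranged from 0.17 with only low dose replicate 2 to 0.35 with only low dose replicate 1. The medians were higher from bin to bin with each of the 4 dose arrays standing alone for its dose. For the genes that fell the bins stood at 0.03, 0.05, 0.08 and 0.13 in the downward direction. Neither high dose array alone gave this full order. On replicate 1 alone the bins stood at -0.01, 0.04, 0.03 and 0.13, and on replicate 2 alone at 0.03, 0.05, 0.14 and 0.13. Of the last bin 41 of 112 genes lay lower on both high dose arrays (36.6%, against 11.2% of all genes). The interval kept the further fall under 2-fold for 97 of these 112 genes (86.6%) and under 1.5-fold for 55 (49.1%). In that bin the low dose median against untreated cells was 89.2% of the high dose median, and 83.4% in the last bin of the genes that rose. Across the 902 genes the mean change beside the agonists and the step between doses had a Pearson r of 0.538 and a Spearman rho of 0.553, where the opposite signs of the groups add to both. Within the genes that rose r was 0.331, and within those that fell it was 0.306. Over all 9301 genes r was 0.238. These values describe genes, which are not independent replicates, and the 2 measures are differences over separate arrays.

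**Figure D2:**
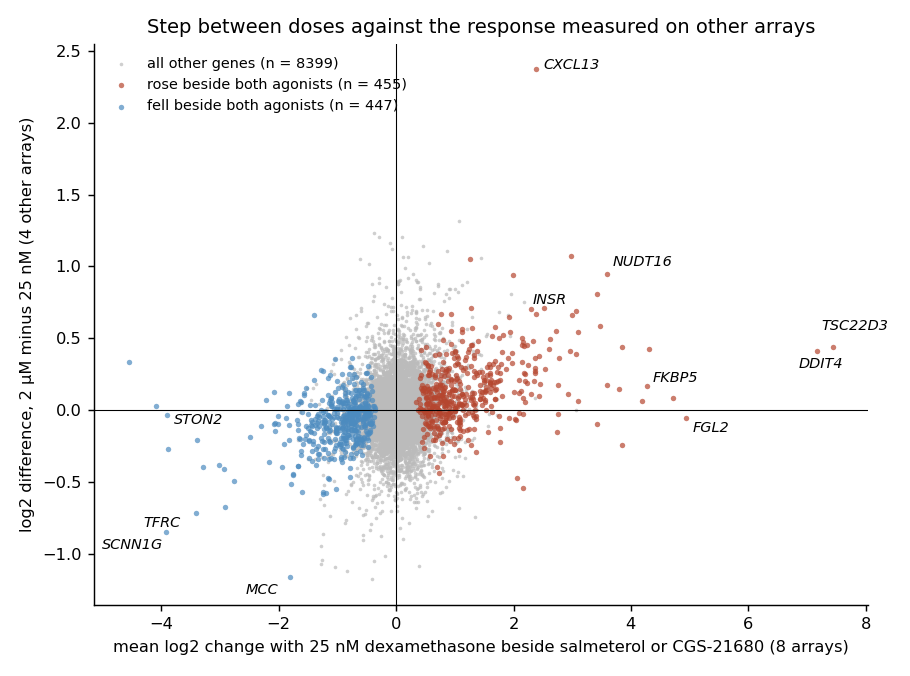
Each point is a gene; the horizontal axis is its mean log2 change with 25 nM dexamethasone beside salmeterol or CGS-21680 (8 arrays) and the vertical axis its log2 difference between 2 µM and 25 nM dexamethasone alone (4 other arrays). The 455 genes that rose lie mostly just above 0 and the 447 that fell mostly just below it, and TSC22D3 and DDIT4, far to the right, have steps of 0.44 and 0.41.

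**Figure D3:**
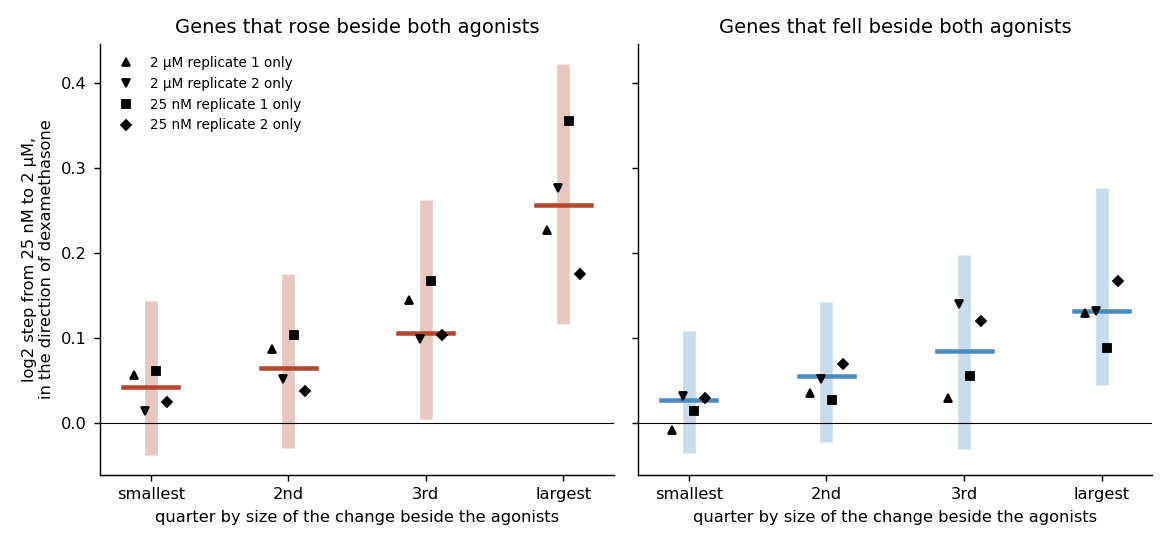
Log2 step from 25 nM to 2 µM in the direction of dexamethasone, in 4 bins of response size beside the agonists; horizontal bars are medians, shaded bars the middle of the distribution between quartiles, and symbols the medians when 1 dose is represented by a single array. The medians go from 0.04 to 0.26 for genes that rose and from 0.03 to 0.13 for genes that fell.

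The genes with the smallest unadjusted p between doses are described next, none of them past the adjusted test. CXCL13, a chemokine that draws B cells, had the largest difference of all genes. Its levels were 2.95 and 2.72 without hormone, 3.79 and 4.93 at 25 nM and 6.51 and 6.95 at 2 µM, with no overlap between doses. Low dose replicate 1 lay under 4, so the size of the step rests in part on a weak level. The step was 2.37 ± 0.38 (interval 1.51 to 3.23, adjusted p = 1), a 5.18-fold difference. It ranged from 1.72 to 2.94 over the 23 alternative settings, with a lowest adjusted p of 0.0598. INSR, the insulin receptor gene, had 10.65 and 10.44 at the low dose and 11.16 and 11.31 at the high dose, and the low dose mean lay 1.60 above untreated cells. Its step was 0.69 ± 0.13 (interval 0.38 to 0.99), and all 5 of its probe sets had a positive one, from 0.10 to 0.79. FEZ2, a homologue of a gene of axon growth, had 7.25 and 7.25 in untreated cells, 7.25 and 7.47 at the low dose and 7.84 and 8.26 at the high dose. Here the low dose lay near untreated cells, and the step was 0.69 ± 0.14. On high dose replicate 2 alone FEZ2 passed the test (adjusted p = 0.0349).

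DKK1 and AKAP14 were also higher at the high dose, at weak levels. DKK1, a secreted inhibitor of Wnt signalling known in myeloma bone disease, had 3.07 and 2.70 at the low dose and 3.91 and 3.96 at the high dose. All 4 values lie under 4, so no fold is given. AKAP14, an anchoring protein of protein kinase A, had 2.96 and 2.89, then 3.78 and 4.22. A second probe set of AKAP14 had a step of 1.69, and with the mean of the probe sets AKAP14 was the single gene called between the doses (1.38, adjusted p = 0.00303). ADCY1, an adenylyl cyclase gene, did not follow the order of dose. It was at 7.07 and 7.14 without hormone, at 6.05 and 5.90 at the low dose and between them at the high dose, 6.48 and 6.79. Its low dose level was lower than untreated (adjusted p = 0.00154), and its high dose level was not called (adjusted p = 0.0594). Its 3 probe sets ran from -0.08 to 0.66 between doses.

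Among the genes lower at the high dose, BARX2, CBLN2 and MCC continued a fall already present at 25 nM. BARX2, a homeobox gene, had 7.57 and 7.70 without hormone, 6.65 and 6.58 at the low dose and 6.15 and 5.98 at the high dose (step -0.55 ± 0.12, interval -0.81 to -0.29). CBLN2, a secreted synaptic organiser, had 9.08 and 8.94, then 7.28 and 7.62, then 6.95 and 6.60. MCC, a gene named for colorectal cancer, had 8.38 and 7.96, then 6.78 and 6.51, then 5.50 and 5.47. Its step was -1.16 ± 0.30, but its second probe set had -0.09. In these genes the groups stood in the order of dose with no overlap. PDLIM2, LERFS and LINC01138 differed in another way. PDLIM2, a PDZ and LIM domain protein gene, had 3.85 on both untreated arrays, 5.34 and 4.79 at the low dose and 4.25 and 3.85 at the high dose. The long non-coding RNA gene LINC01138 had 4.89 and 4.89, then 6.18 and 5.96, then 5.34 and 4.62. In both the low dose was above untreated cells (adjusted p = 0.0199 and 0.0438) and the high dose was not called (adjusted p = 0.698 and 0.919). The step was -1.01 ± 0.24 for PDLIM2 and -1.09 ± 0.27 for LINC01138. For PDLIM2 both untreated arrays, high dose replicate 2 and all agonist arrays lay under 4. It passed the filter only through the low dose arrays and high dose replicate 1. Its low dose rise, bounded at no less than 2.09-fold, and its step thus rest in part on weak levels. LERFS, also a long non-coding RNA gene, had a step of -0.79 ± 0.18 (-0.55 on high dose replicate 1 and -1.03 on replicate 2) and was not called at either dose.

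The 12 genes with the largest rise beside the agonists were chosen on the agonist arrays. TSC22D3, DDIT4 and FKBP5 are among them. HMGB3, a chromatin protein gene, had 10.82 and 10.92 at the low dose and 11.44 and 11.14 at the high dose, against 8.27 and 8.24 without hormone (step 0.42 ± 0.18). NUDT16, a nucleotide hydrolase gene, had 8.03 and 7.92, then 8.91 and 8.94. Its step of 0.95 ± 0.47 had an interval of -0.11 to 2.01, and its 4 probe sets ran from 0.21 to 0.95. P4HA1, a collagen prolyl hydroxylase gene, overlapped between doses (10.26 and 10.86, then 10.82 and 11.17). FAR2, a fatty acyl-CoA reductase gene, was at 9.23 and 9.22 and at 9.31 and 9.27, a step of 0.06, while its second probe set had one of 0.48. PFKFB2, which controls glycolysis, had 8.45 and 8.30, then 8.60 and 8.45. Its step was 0.15, with -1.07 for the lowest of its 3 probe sets and -0.27 for their mean. VIM, the vimentin gene, had 11.26 and 11.25, then 11.39 and 11.47, and FBN1, the fibrillin gene, 4.75 and 4.96, then 5.00 and 4.89. FGL2 and HOPX showed no such response to dexamethasone alone. All 6 arrays of FGL2 without agonist lay between 2.31 and 2.43 and those of HOPX between 2.29 and 2.78, near the floor. For the 10 genes other than FGL2 and HOPX, 25 nM alone raised the level over untreated cells with adjusted p-values from 1.23e-08 to 0.0245, and the steps ran from 0.06 to 0.95.

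The 12 largest falls beside the agonists gave a similar picture with more spread. TFRC, the transferrin receptor gene, had 12.43 and 12.17 without hormone, 10.16 and 9.71 at 25 nM and 9.60 and 8.85 at 2 µM. Its step was -0.71 ± 0.28 (interval -1.33 to -0.09), and its 3 probe sets ran from -0.71 to 0.10. SCNN1G, a subunit of the epithelial sodium channel, had 9.03 and 9.19, then 8.11 and 8.43, then 7.17 and 7.68. It was not called at the low dose against untreated cells (adjusted p = 0.243) and was at the high dose (adjusted p = 0.0173). Its direct step was -0.85 ± 0.35, with an interval of -1.63 to -0.07. CCDC86, a nucleolar protein gene, had 9.02 and 8.98, then 8.87 and 8.70 (step -0.21 ± 0.11). GJA1, the connexin 43 gene, had a step of -0.49 ± 0.39 (-0.75 on high dose replicate 1 and -0.24 on replicate 2) and C11orf96 of -0.41 ± 0.46, both without overlap. CABLES1, PCDH1 and ITGA8 overlapped between doses. STON2, an endocytic adaptor gene, was at 2.32 and 2.35 and at 2.31 and 2.29, both near the floor, so that no further fall could be measured. Its untreated levels of 6.06 and 5.72 put the fall at no less than 3.7-fold at either dose. CXCL10, a chemokine gene induced by interferon, lay near 4 at both doses (3.64 to 4.13). IGFBP3, an insulin-like growth factor binding protein gene, lay in the other direction, at 5.32 and 5.89 and then 5.92 and 5.97.

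Ribosome biogenesis genes had the lowest list medians at both doses. Of 30 genes tested, 5 fell and 0 rose at the low dose (median -0.56), and 14 fell and 0 rose at the high dose (median -0.67), while 2.18% and 4.21% of all genes fell. Between the doses 0 passed limma's test, 10 lay lower on both high dose arrays (11.2% of all genes did), and 0 lay higher. The median step was -0.11, and -0.10 with either high dose array alone. RRP12, a ribosome export factor gene named after its values were seen, had a step of -0.50 ± 0.18, which was -0.20 on high dose replicate 1 and -0.81 on replicate 2. DDX21, a nucleolar helicase gene, and LYAR, a nucleolar regulator gene, fell at both doses and had steps of 0.03 and 0.12, with overlap between doses. Chaperones behaved likewise against untreated cells, with 11 of 22 lower at the low dose and 14 at the high dose. Their median step was -0.03 (0.02 on high dose replicate 2 alone), and 2 lay higher and 3 lower on both high dose arrays.

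In the BCL2 family the genes that glucocorticoids are known to use for killing lymphoid cells had steps under 2-fold between doses on their probe set of highest level. Nearly all genes did, since of 9301 only 17 differed by 2-fold or more upward and 9 downward. BCL2L11, which encodes the death activator BIM, had 9.55 and 9.59 without hormone, 10.51 and 10.63 at 25 nM and 10.73 and 10.92 at 2 µM. The step was 0.26 ± 0.11 (interval 0.00 to 0.51), and its 6 probe sets ran from 0.24 to 0.95 with a mean of 0.55. BMF, another BH3-only activator, had 7.03 and 7.05, then 8.91 on both arrays, then 9.10 and 8.98 (step 0.13 ± 0.11). BCL2L1, a survival gene, had 10.65 and 10.55, then 9.53 and 9.58, then 9.24 and 9.08 (step -0.40 ± 0.20, interval -0.84 to 0.05), with 1 of 4 probe sets at 0.03. MCL1, also a survival gene, was at 11.66 and 11.64 and at 11.63 and 11.57, and its 5 probe sets ran from -0.37 to 0.76. Of the 12 family members tested, 2 lay higher and 2 lower on both high dose arrays, against 12.9% and 11.2% of all genes. The interval of the step lay within 2-fold for all 12, and for 91.2% of all genes.

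**Figure D4:**
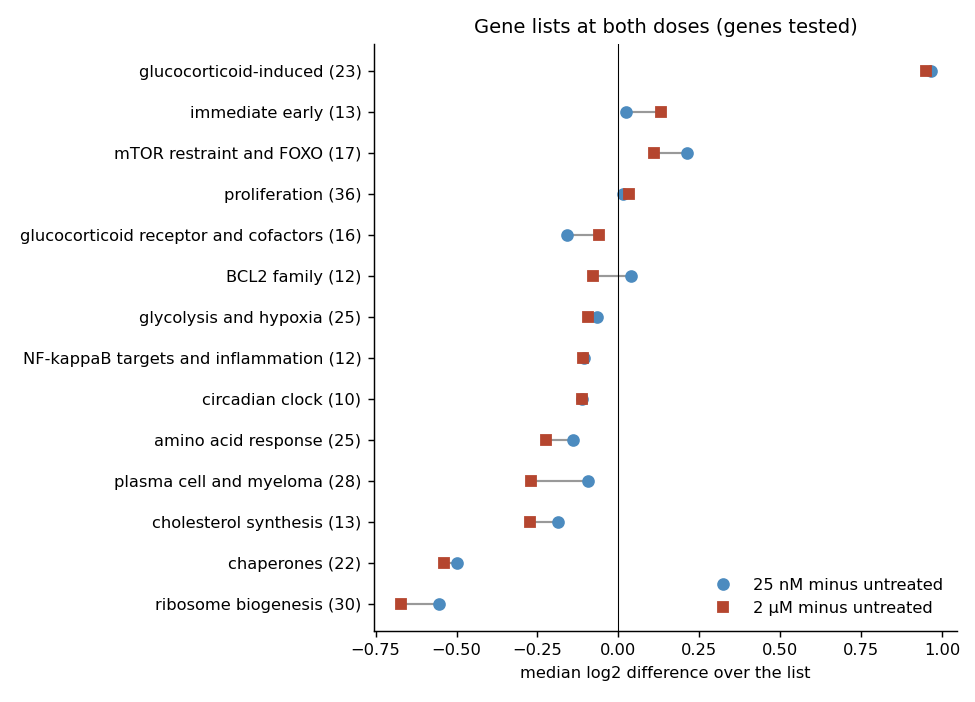
Median log2 difference from untreated cells over each gene list with at least 10 genes tested (number in brackets), at 25 nM (circles) and 2 µM (squares) dexamethasone, both against the same 2 untreated arrays. Glucocorticoid-induced genes stand at 0.97 and 0.95 and ribosome biogenesis genes at -0.56 and -0.67.

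Genes of plasma cells and myeloma tended to lie lower at the high dose. Of 28 tested, 8 lay lower on both high dose arrays (11.2% of all genes did) and 3 higher, with a median step of -0.07, which was -0.08 and -0.07 with single high dose arrays. Against untreated cells 3 fell and 0 rose at the low dose (median -0.09), and 5 fell and 3 rose at the high dose (median -0.27). Of all genes 2.18% fell and 2.47% rose at the low dose, and 4.21% and 4.37% at the high dose. MYC, the growth-promoting transcription factor gene, had 12.49 and 12.50 without hormone, 11.90 and 12.18 at 25 nM and 11.66 and 11.69 at 2 µM. It was called by limma against untreated cells at the high dose (adjusted p = 0.00379) and not at the low dose (adjusted p = 0.0738). The direct step was -0.36 ± 0.12 (interval -0.64 to -0.09, adjusted p = 1). PIM2, a survival kinase gene named after its values were seen, had a step of -0.31, which was -0.12 on high dose replicate 1 and -0.49 on replicate 2. IRF4, a transcription factor that myeloma cells depend on, had 11.88 and 11.93, then 10.72 and 10.97, then 10.58 and 10.71. Its step of -0.20 ± 0.11 became 0.13 when both its probe sets were averaged. CCND2, the cyclin D2 gene, overlapped between doses (12.29 and 12.60, then 12.20 and 12.30), and its 4 probe sets ran from -0.69 to 0.85. The surface antigen genes SDC1, TNFRSF17 and CD38 had steps of 0.08, -0.01 and 0.22, all with overlap.

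The transcript of the receptor gene was at a like level at both doses on its probe set of highest level. NR3C1 had 9.93 and 10.30 at 25 nM and 10.05 and 9.91 at 2 µM, against 9.98 and 10.25 without hormone (step -0.14 ± 0.20). The interval of -0.59 to 0.31 allows a change in either direction. Its 4 probe sets ran from -0.15 to 0.82, with a mean of 0.12. Of 16 genes of the receptor and its cofactors, 2 lay higher and 0 lower on both high dose arrays, where 12.9% and 11.2% of all genes did, and the median step was 0.00. Among 17 genes of a list on mTOR restraint and FOXO factors, which also holds the insulin receptor gene INSR, 5 lay higher and 3 lower. INSR led that list, followed by FOXO1, whose arrays overlapped, DDIT4 and SESN1. SESN1, a stress-induced mTOR inhibitor gene named after its values were seen, had a step of 0.39. The lowest step of the list was -0.45 for EIF4EBP1, also named after its values were seen. It was 0.06 on high dose replicate 1 and -0.97 on replicate 2. DUSP1, a MAP kinase phosphatase gene, had a step of -0.01 and SGK1, a kinase of salt handling, one of -0.07, both with overlap. SGK1 was lower than in untreated cells at both doses (adjusted p = 0.0298 and 0.0128).

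Other lists had median steps between -0.05 and 0.09. Their counts are read against the 12.9% of all genes that lay higher and the 11.2% that lay lower on both high dose arrays. Of 36 proliferation genes 6 lay higher and 1 lower on both high dose arrays (median 0.05, but -0.02 on high dose replicate 2 alone). Of 13 immediate early genes 4 lay higher and 2 lower (median 0.09), of 25 amino acid response genes 4 and 3, of 12 NF-kappaB targets 2 and 1, of 25 glycolysis and hypoxia genes 2 and 1, and of 13 cholesterol synthesis genes 2 and 1. With 1 of the high dose arrays alone the median changed sign for the immediate early, amino acid, NF-kappaB, glycolysis and cholesterol lists. All 7 metallothionein genes tested had steps between -0.05 and 0.07. Of 10 clock genes 1 lay higher and 0 lower.

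Promoter sequences were read for genes at either end of the dose comparison. RefSeq windows of 300 bases (250 before and 50 after a start, GRCh38.p14) were found for 42 of the 52 genes named by rule. They were searched for the half-site of the glucocorticoid response element, AGAACA or its reverse complement TGTTCT, and for both joined by 3 free bases. The half-site was in 9.7% of the windows of genes that rose beside both agonists, in 8.26% for genes that fell, in 9.64% for the other genes tested and in 14.8% of all windows, and the joined form was in 0 windows of the genes tested. FAR2, with a step of 0.06 or 0.48 by probe set, has a half-site 64 bases before 1 of its starts (chr12:29223546-29223665, plus strand, capitals mark the half-site). AKAP14, FKBP5 and SGK1 also have a half-site in a window, with steps of 1.08, 0.17 and -0.07. CXCL13, with the largest step, has none in its windows (shown is chr4:77511633-77511752, plus strand, the 120 bases before a start). A match is a description of letters, and the receptor often acts from distant elements, which these windows do not cover.
FAR2: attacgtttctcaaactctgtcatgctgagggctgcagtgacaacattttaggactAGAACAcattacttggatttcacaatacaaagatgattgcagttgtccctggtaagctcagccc
CXCL13: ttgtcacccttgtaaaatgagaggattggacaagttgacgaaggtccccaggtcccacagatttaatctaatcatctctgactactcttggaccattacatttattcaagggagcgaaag

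The count of genes called between doses depended on which high dose array was used. With high dose replicate 2 alone, 60 genes passed limma's test, 20 higher and 40 lower, and with replicate 1 alone 2 passed, both higher. The lone array is then assumed to vary like the other groups. Of the genes past the test on replicate 2 alone, 2 are among the 902 that dexamethasone changed beside both agonists. Of all genes, 4.89% rose and 4.81% fell beside both. Since the genes past the test were chosen on replicate 2, a larger difference there than on replicate 1 follows in part from the choice. Their median absolute difference from the low dose was 0.974 on replicate 2 and 0.0877 on replicate 1. Replicate 1 went the same way for 26, the other way for 29 and was equal for 5. They included PFN1, ALDOA, CDC42 and HNRNPL, genes of the cytoskeleton, glycolysis and RNA binding that most cells use, named after their values were seen. Replicate 2 is also the array with the smallest gap between the GAPDH control probe sets, while its ACTB gap of 1.65 lay within the range of the other arrays. The part of RNA quality in this result was not tested.

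**Figure D5:**
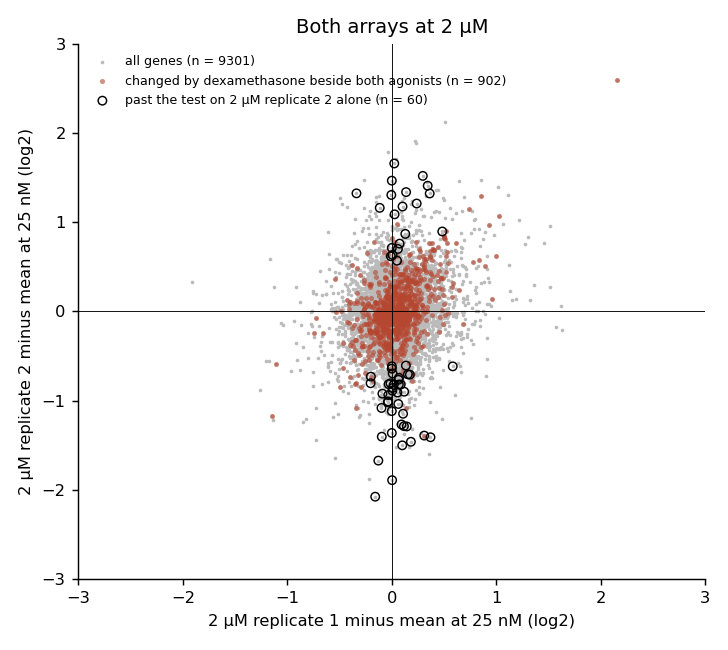
Each point is a gene, with its log2 difference from the low dose mean on 2 µM replicate 1 (horizontal) and replicate 2 (vertical). The circled genes were chosen as past the test on replicate 2 alone, so a larger difference there follows in part from the choice. Their median absolute difference was 0.974 on replicate 2 and 0.0877 on replicate 1, and CXCL13 is the point at the upper right.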

How the data were processed

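Expression was measured on Affymetrix arrays, and the authors deposited an intensity for each of 54675 probe sets. GCRMA is named in the submitters' processing notes, with no version or settings. The linear scale was inferred from the values, and log2 was taken with no pseudocount. Probe sets with exactly 1 gene symbol (41097) and log2 of at least 4 in at least 2 of 14 arrays entered, and the probe set of highest mean stood for its gene, giving 9301 genes. Limma 3.58.1 in R 4.3.3 fitted 7 group means to all arrays, with p-values adjusted by Benjamini-Hochberg over all genes. The script was tested on simulated data. The number of arrays limits the precision: an exact permutation test of 2 against 2 cannot go below p = 0.333.

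Named by rule were the 6 smallest unadjusted p-values in each direction between doses (no gene passed), the 12 largest rises and falls beside the agonists, list members past the test (0) and preset genes past the filter. The members and lists were chosen with earlier results of these data known. Alternatives were quantile normalization, other filters, the mean of probe sets, variance trend, array weights, 4 arrays per fit, a replicate block, an added constant of 16 and leaving out each array. Same-numbered arrays are not said to share a culture or day, and there are only 2 numbers, so no pairing was used.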

Additional observations from a re-analysis of the deposited data

How the results depend on the processing

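The count of 0 genes between the doses held under quantile normalization, the filter at log2 of 6, the variance trend, array weights, the arrays of the groups compared alone, the replicate block and log2 of the value plus 16. It was 14 with no filter (6 higher), 1 with the mean of the probe sets (AKAP14), and 0 to 60 when single arrays were left out. An alternative chosen after seeing the data, all 17893 probe sets past the filter tested one by one, also gave 0, with 644 at an unadjusted p under 0.05 in limma (3.6%). The median step over genes changed beside the agonists, 0.0891 with the values as reported, was 0.0958 with quantile normalization, 0.081 with log2 of the value plus 16 and 0.199 over the 25 genes left when each comparison was fitted on its own 4 arrays, and 0.0634 to 0.103 without single arrays. Against untreated cells the high dose called 497 genes with no filter, 2 on its own 4 arrays and 342 to 1066 without single arrays. The low dose called 281 with no filter, 707 with array weights, 12 on its own 4 arrays and 187 to 448 without single arrays. Beside salmeterol the count was 752 on 4 arrays and 912 to 1605 without single arrays, and beside CGS-21680 it was 816 with no filter and 28 on 4 arrays. With the replicate block 417 genes had an unadjusted p under 0.05 between the doses (328 without it), and the set held 1029 genes. The deviations of same-numbered high and low dose arrays correlated at 0.239 across genes. Levels near the floor of 2.286 limit what can be seen of weak genes. The cause of these changes was not tested.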

Other observations

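Probe sets outside the gene comparison, those with several symbols or none listed, were also tested between the doses after the results had been seen. Of 2287 past the filter, 0 had an adjusted p under 0.05 in limma over all 17893 probe sets, and 73 had an unadjusted p under 0.05 (3.19%). The lowest adjusted p among them was 0.0897, for a probe set that lay 1.41 higher in log2 at the high dose. Over all probe sets the lowest was 0.0524, for a probe set of AKAP14 with a difference of 1.69.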
